A study of Aspergillus luchuensis with 6 samples.

Results

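The transcripts described here are 56 of the 11488 locus tags of *Aspergillus luchuensis* that were barely read in the wild-type strain and more often read in the mutant U1. Tags were chosen on CPM (counts per 1000000 counts of the library), averaged over the libraries of a strain. A member had a wild-type mean under 5 CPM, a U1 mean of at least 5 CPM, a U1 mean at least 2.5 times the wild-type mean, and every U1 library above every wild-type library. Tags AKAW_05980 to AKAW_06045 were left out, and 10 tags that met all the conditions stood there. The choice used the contrast of U1 with wild type itself, so the levels and fold changes of the members below are descriptions and carry no test.

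RNA came from rice koji, which is steamed rice overgrown by the fungus, and was sequenced in 3 libraries per strain. The wild type was RIB2601, and U1 is a mutant in the RIB2601 background that the labels call high in starch degradation and that was obtained, per the series title, by ion beam mutagenesis. U1 is a single mutant strain, so the effects of whatever mutations it carries cannot be told apart, and the labels give neither culture time nor whether the libraries of a strain were separate cultures. If they were not, the spread between libraries measures technical error only.

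*A. luchuensis* is the fungus of the koji used for Japanese distilled spirits, where its secreted amylases turn rice starch into sugars and its citric acid protects the mash. In such a filamentous fungus many genes are kept nearly silent under any one growth condition, and genes for one pathway, above all those of secondary metabolism, often lie side by side and are read together. Ion beams leave point changes, small deletions and rearrangements scattered through a genome. The deposited counts carry locus tags alone: 0 of the 11488 tags occur in the RefSeq gene table at hand, which lists 12941 genes of the species under other identifiers. No gene name, function, position, sequence or length is therefore given for any tag, and markers of the fungus or of its spore-forming cells could not be checked. Without lengths, a level compares libraries for one tag and does not order transcripts of different tags.

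Library totals ran from 4025119 to 5064126 counts in wild type and from 4427719 to 8420828 in U1. At these totals 5 CPM stands for 20.1 reads in the smallest library and 42.1 in the largest, so counting error is a large part of each wild-type value. Over the 3 wild-type libraries a member received 3 to 66 reads, with a median of 38. Over the 3 U1 libraries it received 91 to 989 reads, with a median of 181.

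Low read levels in wild type were common, and rising out of that range in U1 was rare. A wild-type mean under 5 CPM was found for 3606 of the 11488 tags, of which 881 had no wild-type read at all. Of the 3606, 219 reached 5 CPM or more in U1, 67 of these by at least 2.5 times, and 66 of those with no overlap between strains. Exchanging the strains in the same rule gave 37 tags that were under 5 CPM in U1 and raised in wild type. The rule thus found 56 low tags raised in U1 against 37 low tags raised in wild type. Both counts rest on CPM on library totals. With trimmed-mean scaling the first became 52, and the second was not recounted.

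**Figure D1:**
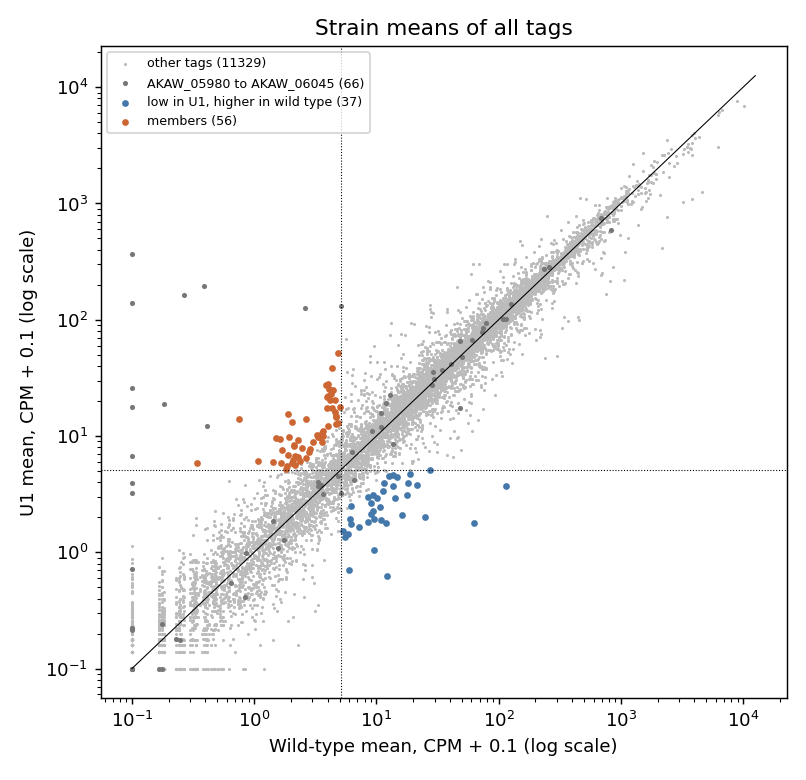
Mean level of every tag in wild type (horizontal axis) and in U1 (vertical axis), in CPM plus a pseudocount of 0.1 on log scales, with dotted lines at the limit of 5 CPM and a solid line at equality. The 56 members lie in the upper left field and the 37 tags of the exchanged rule in the lower right, and the members stand between 5.06 and 52.1 CPM in U1.

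Summed over the members, the wild-type libraries 1, 2 and 3 held 158, 168 and 166 CPM and the U1 libraries 1, 2 and 3 held 747, 754 and 723 CPM. The sum was 4.52 times higher in U1 (164 ± 5.21 CPM against 741 ± 16.6 CPM, SD, n = 3 each). No U1 library stood apart in this sum, although the first held far more counts in all than the others. The members together took 0.0158% to 0.0168% of the counts in wild type and 0.0723% to 0.0754% in U1, so they are a small part of the transcriptome in both strains. RNA from whole koji cannot tell a rise in every cell from a rise in some of the cells.

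Most members reached a modest level. The wild-type means ran from 0.243 to 4.91 CPM with a median of 2.84, and the U1 means from 5.06 to 52.1 CPM with a median of 9.84. In U1, 29 members stayed under 10 CPM, 16 lay between 10 and 20 CPM and 11 reached 20 CPM or more. The ratio of U1 to wild type was under 3 for 14 members, from 3 to 5 for 24, from 5 to 10 for 15 and above 10 for 3. The lowest U1 library exceeded the highest wild-type library by at least 2-fold in 42 members and by less than 1.5-fold in 5. Such a separation was a condition of the choice; among all tested tags 26.1% had every U1 library above every wild-type library.

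**Figure D2:**
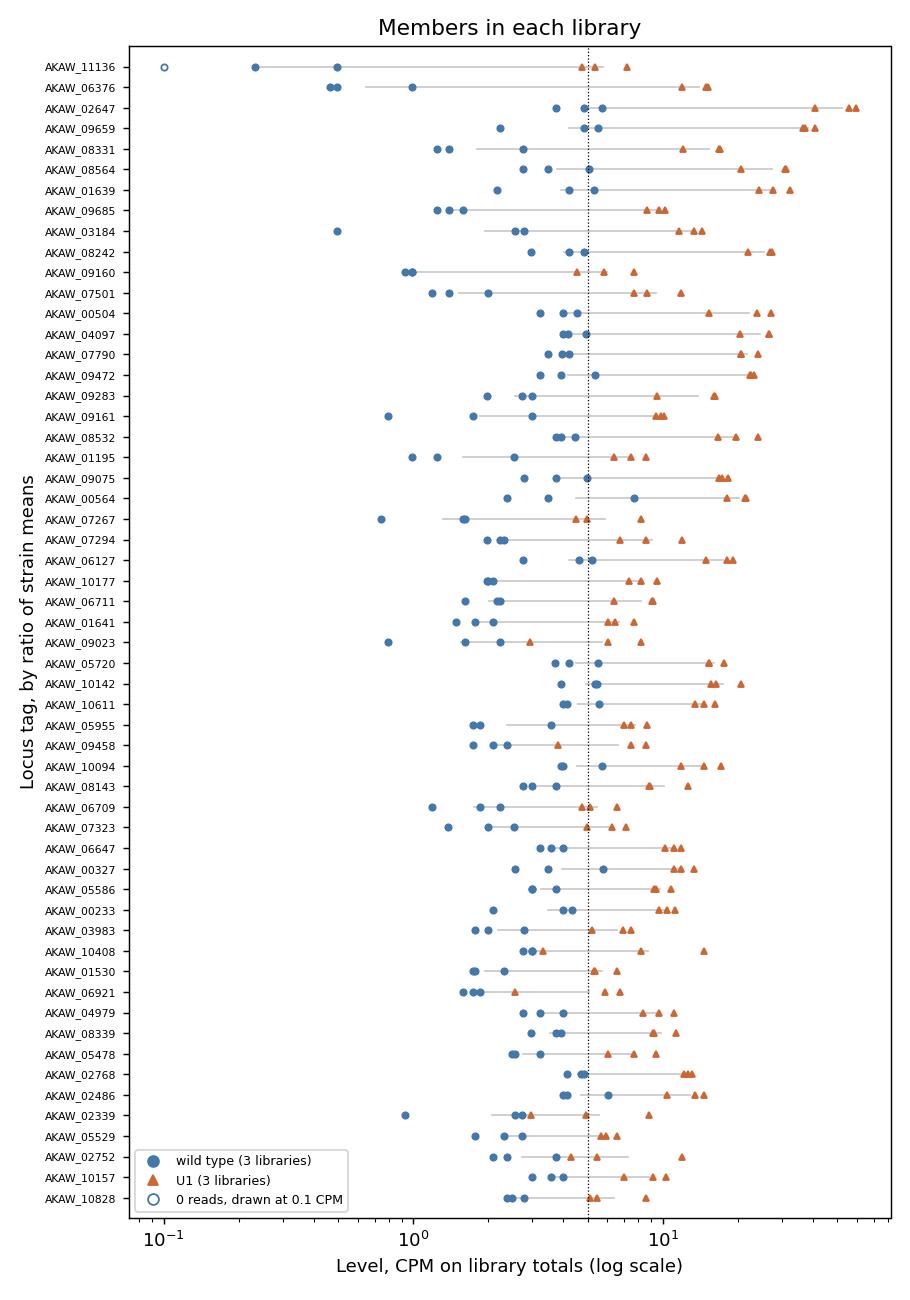
Level of the 56 members in each library, in CPM on a log scale, with circles for the 3 wild-type and triangles for the 3 U1 libraries, ordered by the ratio of the strain means, and a dotted line at 5 CPM. The ratios run from 2.51 at the bottom to 23.8 at the top, and the lone open circle is the wild-type library of AKAW_11136 without a read.

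In the comparison of U1 with wild type over all tags (edgeR's quasi-likelihood test, Benjamini-Hochberg adjusted p under 0.05), 54 of the 56 members were called as higher in U1, against 11.4% of the 8790 tested tags. Among the 908 tested tags under 5 CPM in wild type, 15.4% were called higher and 4.74% lower. The choice fixes the members' direction, so nothing is read from their share. All 56 passed the filter on low counts, and all had 3 U1 libraries at the level of 2.11 CPM that the filter asks of 3 libraries. Only 29 had 3 wild-type libraries at that level, and the other 27 passed through their U1 reads. The median log2 fold change of the members was 1.85, against 0.01 over all tested tags and 0.14 over the 908 low ones. Members without a call were AKAW_02339 and AKAW_10408, and DESeq2's Wald test, which called 8.94% of all tested tags as higher, called all 56.

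The 2 highest ratios belonged to tags with wild-type means under 1 CPM. AKAW_11136 had 0, 1 and 2 reads in the wild-type libraries and 45, 26 and 32 reads in the U1 libraries. Its level went from 0, 0.231 and 0.497 CPM to 5.34, 4.74 and 7.23 CPM. With 3 wild-type reads in all the size of the change is poorly fixed: the ratio of pooled rates was 25.1 with an exact 95% counting interval of 8.36 to 124.

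AKAW_06376 was better measured, with 250 U1 reads, but it had only 5, 2 and 2 reads in the wild-type libraries. Its wild-type levels were 0.987, 0.463 and 0.497 CPM and its U1 levels 11.99, 14.96 and 15.13 CPM. All U1 libraries were thus at least 12.1 times above every wild-type library, and the pooled ratio was 20.3 with an exact 95% counting interval of 10.54 to 44.97. The fitted log2 fold change was 4.25 ± 0.309 (SE).

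AKAW_08331, with a ratio of 8.50, was at 2.76, 1.39 and 1.24 CPM in wild type. It was read at 12.1, 16.8 and 16.9 CPM in U1. The first library of each strain was the outlying one, in opposite directions, and the log2 fold change was 2.93 ± 0.277 (SE).

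Members with the highest U1 levels began at wild-type means of 3.78 to 4.77 CPM. AKAW_02647 went from 5.73, 4.86 and 3.73 CPM in wild type to 59.5, 56.0 and 40.9 CPM in U1. Its 65 wild-type and 989 U1 reads gave a log2 fold change of 3.37 ± 0.195 (SE), and it was the member with the most U1 reads. AKAW_09659 went from 5.53, 4.86 and 2.24 CPM to 40.9, 37.2 and 36.4 CPM. The U1 libraries of this tag were much closer together than its wild-type libraries, which rested on 28, 21 and 9 reads.

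AKAW_01639 rose from 2.17, 5.32 and 4.22 CPM to 32.4, 24.3 and 27.8 CPM. AKAW_08564 rose from 2.76, 5.09 and 3.48 CPM to 30.9, 31.2 and 20.6 CPM, with the third U1 library lowest. AKAW_08242 had 2.96, 4.86 and 4.22 CPM in wild type and 27.3, 27.0 and 21.9 CPM in U1. For these 3 tags the fitted log2 fold changes were 2.82 ± 0.230, 2.83 ± 0.232 and 2.62 ± 0.197 (SE). AKAW_04097 completed the group with 4.94, 4.16 and 3.98 CPM against 26.7, 26.6 and 20.3 CPM. In 5 of these 6 tags the third U1 library was the lowest of its strain, the exception being AKAW_01639.

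The spread among the U1 libraries differed from member to member. The highest U1 library was less than 1.5 times the lowest in 40 members, 1.5 to 2 times in 10 and at least 2 times in 6 (10.7%). Its median was 1.34 times, against 1.23 times in 3773 other tested tags with U1 means from 5 CPM to the members' maximum, of which 2.04% reached 2 times. These U1 values took part in the choice, so the difference was not tested. The other tags were not matched to the members on level. The 6 members with the widest spread had U1 means of 5.06 to 8.74 CPM, near the low end of that range, where counting error is larger. The tightest was AKAW_09472, at 22.7, 23.2 and 22.4 CPM in U1 after 5.33, 3.93 and 3.23 CPM in wild type. AKAW_02768 was read at 13.1, 12.6 and 12.2 CPM in U1 and at 4.15, 4.86 and 4.72 CPM in wild type, a small step with little spread in either strain. AKAW_09075 was nearly as even, with 17.2, 16.8 and 18.3 CPM in U1 and 3.75, 2.78 and 4.97 CPM in wild type.

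A few members differed strongly among the U1 libraries. AKAW_10408 was read at 3.33, 8.21 and 14.7 CPM in U1, a span of 4.42 times, and at 2.76, 3.01 and 2.98 CPM in wild type. Its first U1 library was within 1.11 times of the highest wild-type library, while the third was far above. AKAW_02339 had 2.97, 4.92 and 8.81 CPM in U1 and 2.57, 0.925 and 2.73 CPM in wild type, and AKAW_02752 had 4.28, 5.47 and 11.97 CPM in U1 and 2.37, 2.08 and 3.73 CPM in wild type. In all 3 the third U1 library was at least 2 times the first, as it was in AKAW_09458. Such a gap was found in 4 of the 56 members (7.14%) and in 47 (1.25%) of the 3773 other tags, which leave out AKAW_05980 to AKAW_06045. This share too rests on values the choice used and on tags not matched on level, and was not tested.

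Leaving out 1 library moved the fitted values of these members, which are given as descriptions. For AKAW_10408 the log2 fold change was 1.38 ± 0.527 (SE) with all libraries, 1.86 without U1 replicate 1 and 0.82 without U1 replicate 3. For AKAW_02339 it was 1.22 ± 0.450 (SE) with all libraries, 1.60 without U1 replicate 1 and 0.79 without U1 replicate 3. AKAW_02752 moved in the same way: its log2 fold change of 1.25 ± 0.412 (SE) became 1.57 without U1 replicate 1 and 0.76 without U1 replicate 3. For this tag it was 1.15 without wild-type replicate 1 and 1.11 without wild-type replicate 2.

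Other uneven members showed different low libraries. AKAW_09023 was low in the third U1 library, with 6.06, 8.21 and 2.94 CPM against 0.790, 1.62 and 2.24 CPM in wild type. AKAW_06921 was low in the second, with 6.77, 2.55 and 5.87 CPM against 1.58, 1.85 and 1.74 CPM in wild type. Its log2 fold change was 1.52 ± 0.387 (SE) with all libraries, 1.16 without U1 replicate 1 and 1.84 without U1 replicate 2.

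The values of a library that took no part in the choice were examined by applying the rule to 5 libraries and reading the sixth. Without U1 replicate 1, 64 tags were chosen, and in the library left out 61 of them lay above every wild-type library. For U1 replicates 2 and 3 these counts were 57 of 57 and 56 of 58. When a wild-type library was left out, 59 tags were chosen each time, and the library left out lay below every U1 library in 58, 57 and 58 of them for replicates 1, 2 and 3. Over all 8790 tested tags, 40.0% to 48.5% had a given U1 library above every wild-type library and 41.3% to 44.2% a given wild-type library below every U1 library. These shares include tags that did not rise, so they are not what tags already raised in 5 libraries would give. The libraries of the other strain took part in the choice, so each check is independent in 1 library only.

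The size of the ratio carried over less fully. A ratio of 2.5 or more was reached in the unused library by 71.9% (U1 replicate 1) to 83.1% (wild-type replicate 1) of the tags so chosen. The largest drop in the median ratio was for U1 replicate 1, from 3.72 in the libraries that chose to 3.21 in the one that did not. In 2 tags for that library and in 1 for U1 replicate 3 the level in the unused U1 library was below the wild-type mean.

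**Figure D3:**
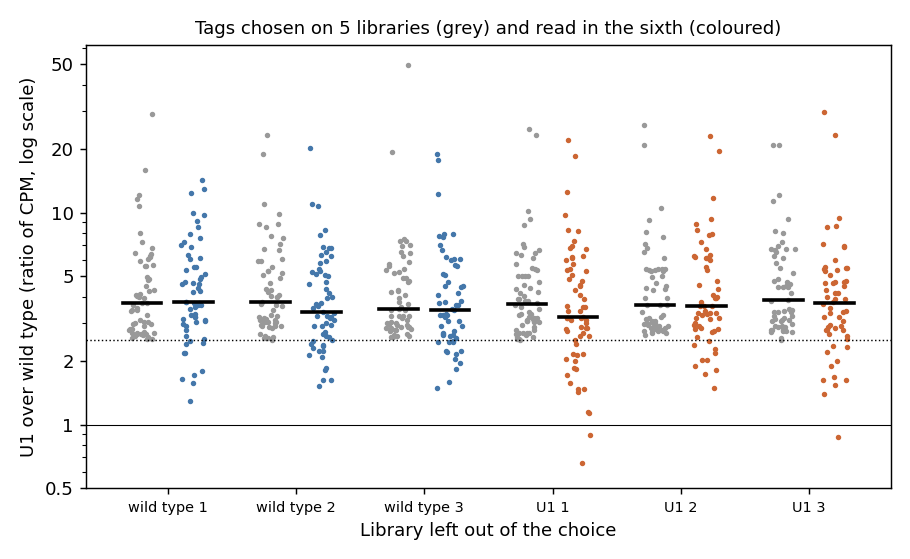
Ratio of U1 to wild type, on a log scale, for tags chosen on 5 libraries: grey points are the ratio in those libraries and coloured points the ratio with the library left out as the only one of its strain, black bars being medians and the dotted line the limit of 2.5. A wild-type library under 3 reads was set to 3 reads. The medians in the unused library run from 3.21 to 3.77, and points under 1 occur only for U1 replicates 1 and 3.

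The limits of the rule on ratio and level cut through a continuum. Just inside the limit of 2.5 stood AKAW_10828 (ratio 2.510), AKAW_10157 (2.511) and AKAW_02752 (2.66), and just outside stood AKAW_06375 (2.48), AKAW_06923 (2.442) and AKAW_01075 (2.442). At the U1 limit AKAW_06921 (5.06 CPM) and AKAW_06709 (5.47 CPM) were inside, and AKAW_02399 (4.80 CPM) and AKAW_05440 (4.77 CPM) outside. At the wild-type limit AKAW_10142 (4.91 CPM) and AKAW_02647 (4.77 CPM) were inside, and AKAW_09895 (5.049 CPM) and AKAW_05875 (5.052 CPM) outside. AKAW_10828 was read at 2.37, 2.78 and 2.48 CPM in wild type and at 5.46, 5.11 and 8.58 CPM in U1, and AKAW_10142 at 5.33, 3.93 and 5.47 CPM against 15.6, 16.4 and 20.6 CPM. In both the third U1 library was the highest. Of all other tags outside AKAW_05980 to AKAW_06045, 77 failed the ratio alone, 97 the U1 limit alone, 83 the wild-type limit alone and 1 the separation alone. A tag unread in wild type meets the ratio with any U1 read, so the 97 can hold tags of very few reads. AKAW_09162, with 0 wild-type reads and 2, 1 and 4 U1 reads, met all conditions but the U1 limit. Rising tags thus continue past the limits of ratio and wild-type level, and the members are a band of them.

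The 31 members not named above or below by the naming rule filled the same ranges. Under 10 CPM in U1 with a ratio under 4 stood 10 tags, AKAW_01530, AKAW_03983, AKAW_04979, AKAW_05478, AKAW_05529, AKAW_05586, AKAW_05955, AKAW_07323, AKAW_08339 and AKAW_09458, with log2 fold changes of 1.35 to 1.60. At the same U1 level but with larger ratios stood AKAW_01195, AKAW_07267, AKAW_07294, AKAW_07501, AKAW_09685 and AKAW_10177, 6 tags that began at 1.31 to 2.17 CPM and had log2 fold changes of 1.94 to 2.65. Between 10 and 20 CPM in U1 with a ratio under 4 stood 8 tags, AKAW_00233, AKAW_00327, AKAW_02486, AKAW_05720, AKAW_06647, AKAW_08143, AKAW_10094 and AKAW_10611, with log2 fold changes of 1.40 to 1.74. AKAW_03184, AKAW_06127 and AKAW_09283 reached 13.1 to 17.4 CPM at ratios of 4.14 to 6.74. AKAW_00504, AKAW_00564, AKAW_07790 and AKAW_08532 reached 20.1 to 22.1 CPM from 3.88 to 4.51 CPM.

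Members were spread over the whole numbering, from AKAW_00233 to AKAW_11136. Each block of 1000 tag numbers up to AKAW_10999 held 2 to 9 of them. The median distance to the nearest other member was 58.5 tag numbers, and 21 members stood 100 or more numbers away from any other. Within 2 numbers of another stood 6 members, in 3 pairs. How many would stand so close under even placement was not worked out. Neighbouring numbers are taken as neighbouring genes here, which no genome was at hand to check.

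The tags directly before and after a member were examined as values that the rule did not choose. These flanking tags numbered 108 once members were set aside, and 78 of them were tested. Of the 78, 22 rose and 8 fell (edgeR adjusted p under 0.05). The shares were 28.2% higher and 10.3% lower, against 11.4% and 13.1% of all tested tags. Their median log2 fold change was 0.20, against 0.01 over all tested tags. At 2, 3, 4 and 5 numbers away the shares called higher were 15.5%, 20.8%, 12.2% and 8.57%, and those called lower 19.0%, 10.4%, 12.2% and 12.9%.

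**Figure D4:**
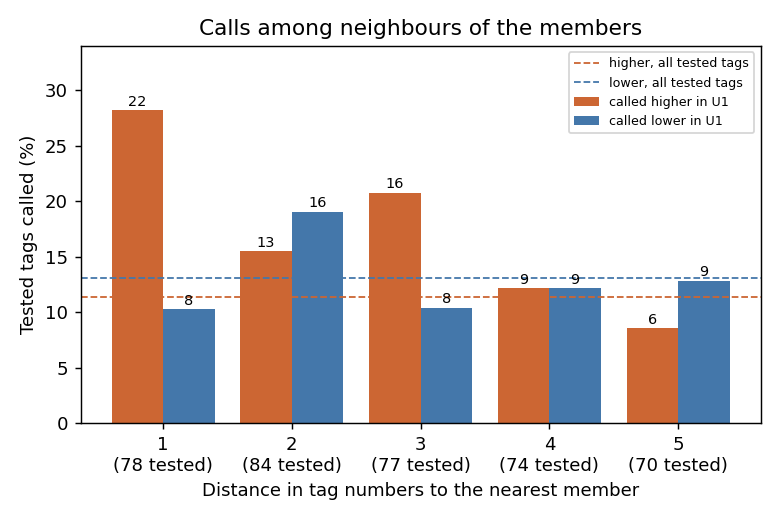
Share of tested tags called higher (orange) or lower (blue) in U1 by distance in tag numbers to the nearest member, members not counted, with the number of calls above each bar and the shares over all tested tags as dashed lines. The share called higher is 28.2% beside a member and 8.57% at 5 numbers away.

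Rising neighbours also stood beside rising tags of higher wild-type level. Beside the 83 tags that rose by at least 2.5 times without overlap from 5 CPM or more, 32 of 128 tested neighbours were called higher and 17 lower, and the difference from the members' neighbours was not tested. Beside the 37 tags of the exchanged rule, 16 of 36 tested neighbours were called lower and 5 higher. Reads shared between overlapping neighbours cannot be told apart in these counts, since neither gene positions nor the strand setting are given, and their part in the neighbours' calls was not tested.

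The rule sets low neighbours with a rise of 2.5 times aside as members, so the remaining neighbours could rise that far only from higher levels or outside its other limits. The 22 rising flanking tags had log2 fold changes of 0.24 to 1.70 with a median of 0.64, and 18 of them were at 5 CPM or more in wild type. A log2 fold change of at least 1 in either direction was found for 8 rising and 2 falling flanking tags. Of the 56 members, 20 had a flanking tag that rose and 8 had one that fell, and 7 had tested flanking tags on both sides of which neither was called. A flanking tag was too weakly read to be tested beside 26 members.

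The strongest rising neighbour stood in a graded stretch around a close pair of members. AKAW_01637 rose from 74.5 ± 9.04 to 111.0 ± 2.06 CPM (SD over 3 libraries; log2 fold change 0.50 ± 0.090, SE; adjusted p = 0.000395 in edgeR). AKAW_01638 was read at 29.0, 23.4 and 24.3 CPM in wild type and at 95.4, 79.0 and 88.1 CPM in U1 (log2 fold change 1.70 ± 0.114, SE; adjusted p = 6.39e-09 in edgeR). The member AKAW_01639 follows, AKAW_01640 had no read in any library, and the member AKAW_01641 went from 1.78, 2.08 and 1.49 to 6.41, 6.02 and 7.68 CPM. The change ended there: AKAW_01642 was at 10.3 ± 0.688 CPM in wild type and at 9.88 ± 0.273 CPM in U1 (SD over 3 libraries; edgeR adjusted p = 0.64). The strains did not overlap in AKAW_01637 or AKAW_01638, nor in the members, where the rule required it. Among all tested tags 26.1% had every U1 library above every wild-type library. The stretches described here were picked out after their values had been seen, except for the pairs of members and the 4 flanking tags with the largest fold changes, AKAW_01638, AKAW_08330, AKAW_08531 and AKAW_10158.

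A second close pair was interrupted by a tag at an even level. AKAW_06709 went from 1.18, 1.85 and 2.24 CPM in wild type to 4.75, 5.11 and 6.55 CPM in U1. AKAW_06711 went from 2.17, 1.62 and 2.24 CPM to 9.14, 6.38 and 9.03 CPM. Between them AKAW_06710 stayed at 38.9 ± 2.67 CPM in wild type and at 39.5 ± 3.92 CPM in U1 (SD over 3 libraries; log2 fold change -0.05 ± 0.110, SE, edgeR adjusted p = 0.805). Outside the pair, AKAW_06708 rose (log2 fold change 0.51 ± 0.147, SE; adjusted p = 0.0171 in edgeR) and AKAW_06712 with 1.48 ± 0.186 (SE; edgeR adjusted p = 1.09e-05). Around the members, whose rise was a condition of the choice, AKAW_06708 and AKAW_06712 were thus higher in U1 and AKAW_06710 was not called.

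The third pair was directly adjacent, and no direct neighbour of it was called. AKAW_09160 went from 0.987, 0.925 and 0.994 CPM to 5.82, 7.66 and 4.52 CPM. AKAW_09161 went from 0.790, 3.01 and 1.74 CPM to 9.38, 9.85 and 10.2 CPM. AKAW_09158, farther out, fell by 0.88 on the log2 scale (adjusted p = 0.00353 in edgeR). Before the pair AKAW_09159 was not called (log2 fold change -0.35 ± 0.134, SE, edgeR adjusted p = 0.0662), and after it AKAW_09162, which was not tested, had 0 wild-type and 2, 1 and 4 U1 reads.

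AKAW_08331 also had a rising neighbour. AKAW_08330 was read at 19.2, 15.5 and 12.9 CPM in wild type and at 48.6, 50.7 and 40.9 CPM in U1 (log2 fold change 1.48 ± 0.140, SE; adjusted p = 4.07e-07 in edgeR). On the other side AKAW_08332 was nearly unread in both strains, at no more than 4 reads in a library. AKAW_06376, one of the steepest members, stood next to AKAW_06375, which missed the ratio of the rule narrowly and rose (log2 fold change 1.14 ± 0.362, SE; adjusted p = 0.0359 in edgeR).

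Other members rose beside tags that fell. AKAW_10157 went from 3.55, 3.01 and 3.98 CPM in wild type to 10.33, 9.12 and 7.001 CPM in U1. The next tag, AKAW_10158, went from 18.6, 15.5 and 13.9 CPM to 1.54, 1.46 and 2.94 CPM (log2 fold change -3.16 ± 0.252, SE; adjusted p = 5.5e-08 in edgeR). The strains did not overlap in AKAW_10158, where U1 was the lower, nor in AKAW_10157, where the choice required it. On the other side AKAW_10156 was at 4.74, 1.85 and 2.73 CPM in wild type and at 4.16, 7.66 and 6.55 CPM in U1, and was not called (log2 fold change 0.81 ± 0.327, SE; adjusted p = 0.0848 in edgeR). AKAW_10159 also fell, from 154 ± 12.1 to 51.0 ± 3.42 CPM (SD over 3 libraries; log2 fold change -1.68 ± 0.086, SE; adjusted p = 2.92e-10 in edgeR), as did AKAW_10155 by 0.88 on the log2 scale (edgeR adjusted p = 0.000274).

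AKAW_08532 was placed in the same way. It was read at 3.75, 3.93 and 4.47 CPM in wild type and at 19.6, 16.6 and 24.2 CPM in U1. The tag before it, AKAW_08531, went from 37.1, 19.9 and 25.1 CPM to 5.34, 6.02 and 3.61 CPM (log2 fold change -2.50 ± 0.245, SE; adjusted p = 2.63e-06 in edgeR). AKAW_08531 and AKAW_10158 were the only flanking tags that met the exchanged rule. Farther out on the same side of the member as AKAW_08531, AKAW_08530 had no read and AKAW_08529 rose (log2 fold change 0.61 ± 0.206, SE, edgeR adjusted p = 0.038). Beyond AKAW_08533, which was not called (edgeR adjusted p = 0.203), AKAW_08534 fell (log2 fold change -1.42 ± 0.171, SE; adjusted p = 7.15e-06 in edgeR).

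AKAW_02647 rose between direct neighbours that moved little. AKAW_02646 went from 246 ± 8.06 to 305 ± 17.1 CPM (SD over 3 libraries; log2 fold change 0.24 ± 0.069, SE; adjusted p = 0.0178 in edgeR). AKAW_02648 was at 101 ± 8.55 CPM in wild type and at 110.1 ± 8.97 CPM in U1 (SD over 3 libraries; log2 fold change 0.06 ± 0.085, SE; adjusted p = 0.673 in edgeR). The member's ratio was 10.9, against 1.24 and 1.09 for these neighbours. Farther out, AKAW_02645 fell from 1595 ± 11.8 to 1046 ± 16.1 CPM (SD over 3 libraries; log2 fold change -0.68 ± 0.075, SE; adjusted p = 2.44e-06 in edgeR).

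**Figure D5:**
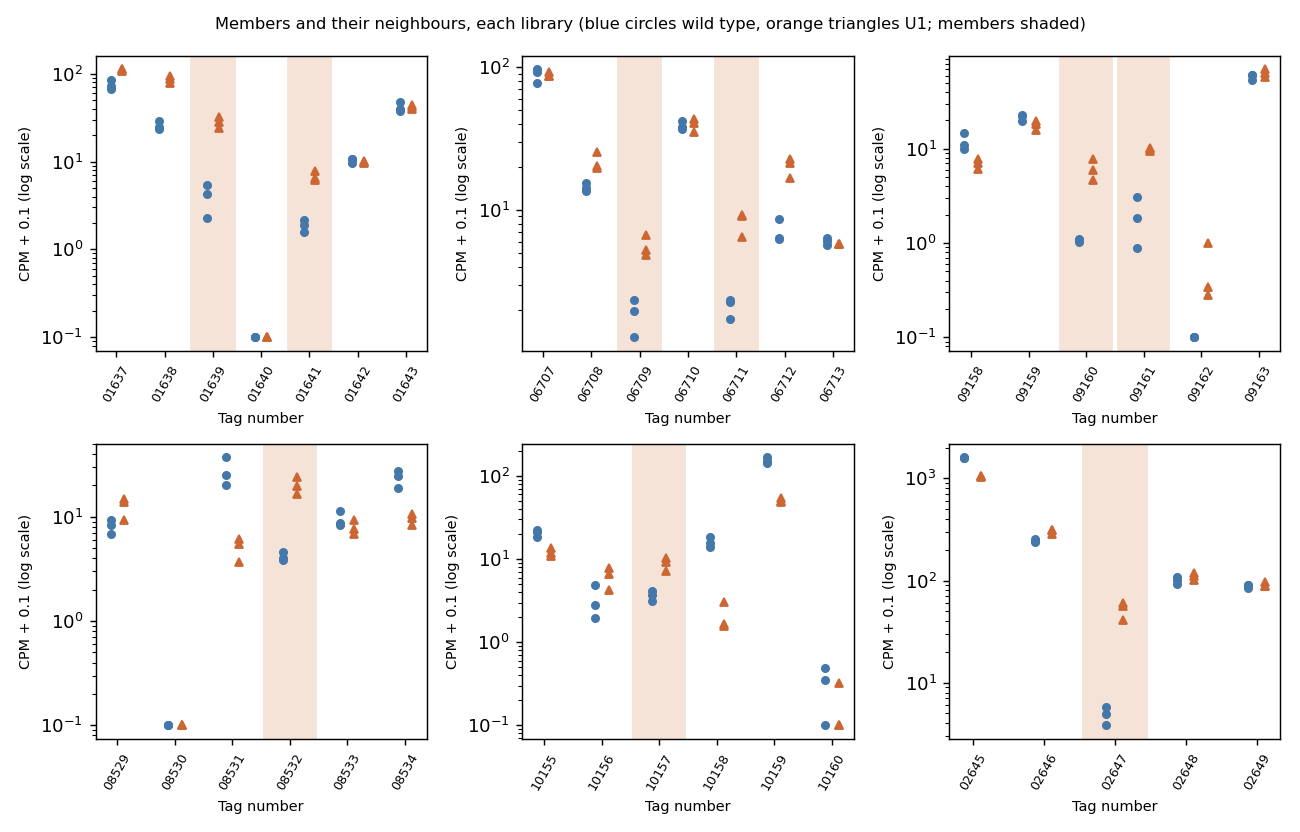
Level of members (shaded) and their neighbours in each library, in CPM plus a pseudocount of 0.1 on log scales, by tag number, with circles for the 3 wild-type and triangles for the 3 U1 libraries. The first panels show the 3 close pairs, the next ones AKAW_08532 and AKAW_10157 rising beside AKAW_08531 and AKAW_10158, which fell, and the last AKAW_02647 between direct neighbours that moved little, with AKAW_02645, which fell, at its left.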

How the data were processed

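The authors deposited 1 table of raw counts per locus tag for each of the 6 libraries, whole numbers without normalization. Per the submitters' processing notes, reads were handled with Trimmomatic 0.32 and BWA 0.7.12; the sources used here give no counting program, genome build, annotation or strand setting. BWA aligns without splicing, so counts may miss reads that span exon junctions.

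Levels are CPM on library totals. Strains were compared over all tags with edgeR 4.0.16 in R 4.3.3: filterByExpr, trimmed-mean (TMM) scaling, a quasi-likelihood fit with robust options and strain as the sole term, tested two-sided and Benjamini-Hochberg adjusted over the 8790 tested tags. Fold changes carry an SE of their size over the square root of F. The code was tested on simulated data. Library pairs of a strain differed by more than sampling noise (chi-square over degrees of freedom 2.15 to 7.46), so all were counted. Counting intervals are exact (conditional binomial) and cover counting error only.

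Members, lists and tests were chosen with earlier results of these data known. Tags named with values were the 6 members with the highest U1 level, the 6 with the highest ratio, the 4 with the largest and the 4 with the smallest U1 spread, pairs within 2 numbers, tags nearest the limits, and the 4 called flanking tags with the largest fold change; others were named after their values were seen. Alternatives were DESeq2 1.42.0 size factors and Wald test, library totals alone, no filter, the replicate block, an adjusted p under 0.01, leaving out each library, and other limits of the rule. Gene lists could not be filled, as no tag carries a name.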

Additional observations from a re-analysis of the deposited data

How the results depend on the processing

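The number of tags under the rule stayed within 1.5 times of 56 in every alternative: 52 with trimmed-mean or DESeq2 scaling (all 52 members), 78 and 42 at ratios of 2 and 3, 42 and 60 at limits of 3 and 10 CPM, 57 without the condition on overlap and 57 to 64 without 1 library. The limits decide which tags are in: 29 of the 42 and 27 of the 60 were members. Between 53 and 56 members were called in every refit, while 741 to 1385 of all tags were called higher. The members were chosen on these same libraries, so nothing is read from their count. The median log2 fold change of the members was 1.73 to 1.93 when 1 library was left out (lowest without U1 replicate 3) and 1.92 with library totals alone. At an adjusted p under 0.01, 1416 tags were called in all, 634 of them higher, with 14 rising and 5 falling flanking tags. Falling flanking tags numbered 5 with DESeq2's Wald test and 5 to 7 when 1 library was left out (5 without wild-type replicate 2 or 3), against 8, and the cause was not tested; rising ones numbered 16 to 21, against 22. With library totals alone 1385 tags were higher and 899 lower, so the balance of directions over all tags rests on the scaling, while 23 flanking tags rose and 6 fell. Over 275 refitted fold changes of the 25 named members a call was lost in 4 and gained in 6. None changed sign, which the conditions of the choice all but fixed. The 4 named flanking tags kept their calls in all 44 refitted fold changes. With the replicate block 2091 tags and all 56 members were called; same-numbered libraries did not deviate together (r = -0.037, 0.00 and -0.068 across tags), so the numbers are not taken to pair libraries. Depth limits the wild-type levels: 27 members had at least 1 wild-type library under 2.11 CPM.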
